A study of Mus musculus with 24 samples.

Results

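The Notch receptors *Notch1*, *Notch2* and *Notch3*, the ligands *Dll1*, *Dll3*, *Jag1* and *Jag2*, and the Fringe genes *Lfng* and *Mfng* were followed across the series. They are 9 of the 51912 genes in the normalized count table and were picked by name. The question was whether the downregulation of *Notch1* in *Sox9* mutant archicortex (ARK) extended to the rest of the receptor and ligand group. Since the *Notch1* level at E13.5 led to this choice, its values are given as a description. The counts below are over the other 8 genes, except where all 9 are named.

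The series measured messenger RNA in ARK, the dorsomedial embryonic forebrain that holds the dentate neuroepithelium and the cortical hem, dissected from mouse embryos of mixed C57BL/6J;MF1 background. It holds 24 libraries, 4 in each of 6 groups. *Sox9fl/fl;Sox1Cre* embryos (Sox1Cre mutants) and *Sox9+/+;Sox1Cre* embryos (Sox1Cre controls) were collected at E12.5 and at E13.5, and *Sox9fl/fl;NestinCre* embryos (NestinCre mutants) and *Sox9+/+;NestinCre* embryos (NestinCre controls) at E13.5. Every control carries the same Cre as its mutants, so the presence of the Cre does not differ within a mutant comparison. Other differences between mutant and control embryos than the floxed *Sox9* alleles, such as sex or litter, are not removed by this. The targeted allele *Sox1Cre* recombines early and throughout the neural plate. With the later *Nestin-Cre*, recombination at E13.5 covers the dentate neuroepithelium and largely leaves out the cortical hem. Part of the dissected tissue was therefore not targeted in the NestinCre line. The sources used here do not say whether a library is 1 embryo, and p-values measure the spread between libraries. The depth, counted as reads assigned to genes, was 16163560 in the shallowest library, 23016925 at the median and 49445219 in the deepest.

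Notch receptors are single-pass membrane proteins that are cut after binding a Delta or Jagged ligand on a neighbouring cell. The freed intracellular part enters the nucleus and joins the DNA-binding protein RBPJ to switch on target genes of the Hes and Hey families. In the embryonic forebrain this signal keeps radial glia in a progenitor state, while cells that begin to differentiate present the ligands. Fringe enzymes add a sugar to the receptor and thereby bias it between Delta and Jagged ligands.

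The libraries were first checked against their labels. *Sox9*, the deleted transcription factor, was lower in every mutant library than in every control library of its comparison. It measured 3363 ± 376 normalized counts in Sox1Cre mutants and 5578 ± 306 in controls at E13.5 (SD, n = 4 in all groups), a log2 fold change of -0.74 (adjusted p = 0.0021). At E12.5 the log2 fold change was -1.02 (adjusted p = 6.28e-05), and in NestinCre mutants it was -0.71 (adjusted p = 0.0297). The authors report that recombination removes only some *Sox9* exons and that a remaining exon is still expressed in mutants. These counts cover the whole gene, so they do not measure how much of it was deleted. Dorsal forebrain markers were abundant, led by *Lhx2*, whereas all 7 ventral telencephalon markers averaged under 20 normalized counts. Library A18, a NestinCre mutant, held a summed ventral marker level of 658 against 15.4 to 99.5 in the other 23 libraries.

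Library A1 stood apart. In it, a Sox1Cre mutant at E13.5, the summed normalized counts of 9 endothelial markers reached 5047 against 9845 to 12779 in the other 3 libraries of its group, those of 6 choroid plexus markers 7248 against 64305 to 87040.4, and those of 7 cortical hem markers 7411 against 11293 to 15439. Several values below are given without A1 too. *Xist*, which is expressed from the inactive X chromosome in female cells, was high in all 4 E12.5 Sox1Cre controls and low in all 4 E13.5 Sox1Cre controls, and each mutant group held 2 libraries of each kind. Of the NestinCre controls, 1 (A23) was high and 3 were low. Sex was therefore uneven in each mutant comparison and cannot be told apart from age in the Sox1Cre controls.

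Promoter sequences are shown for 3 of the genes, because the deleted gene encodes a DNA-binding factor and these 3 are examples of values given below: *Notch1* was lower in mutants, *Dll1* was 1 of 3 genes lower at E13.5 than at E12.5 in both Sox1Cre genotypes, and *Lfng* had the highest correlation with *Notch1* of the other 8. Each run is the 250 bases before a RefSeq transcription start on GRCm38.p6, written 5′ to 3′ on the strand of the gene. Capitals mark the searched letters, which were TTCCCAC (RBPJ), AACAAT and ACAAAG (SOX factors), and CAGCTG and CAGATG (proneural factors), on both strands. *Notch1* (chr2:26503823-26504072, minus strand) held none of them. The *Dll1* window shown (chr17:15376933-15377182, minus strand) held CAGCTG and ACAAAG, and the other *Dll1* window (chr17:15375824-15376073), which is not shown, held none. *Lfng* (chr5:140607091-140607340, plus strand) held CAGCTG and ACAAAG as well as the reverse complement of the RBPJ letters.
Notch1: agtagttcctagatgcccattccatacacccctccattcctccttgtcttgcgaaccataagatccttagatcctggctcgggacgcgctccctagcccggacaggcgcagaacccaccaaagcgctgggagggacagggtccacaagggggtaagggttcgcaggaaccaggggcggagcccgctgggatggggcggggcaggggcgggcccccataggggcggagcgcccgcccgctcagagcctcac
Dll1: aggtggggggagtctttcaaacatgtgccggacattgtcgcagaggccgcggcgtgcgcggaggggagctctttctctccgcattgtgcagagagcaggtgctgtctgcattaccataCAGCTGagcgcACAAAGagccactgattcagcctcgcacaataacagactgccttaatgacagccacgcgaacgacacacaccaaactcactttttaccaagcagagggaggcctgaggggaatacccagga
Lfng: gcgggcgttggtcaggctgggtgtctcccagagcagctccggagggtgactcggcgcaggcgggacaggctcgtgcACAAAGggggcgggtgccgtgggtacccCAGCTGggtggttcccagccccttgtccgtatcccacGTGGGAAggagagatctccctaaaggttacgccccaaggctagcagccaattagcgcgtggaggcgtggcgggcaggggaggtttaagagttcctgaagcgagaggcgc

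The *Notch1* window lies inside the longer gene span that GENCODE gives, which starts further upstream. Among all 32851 mouse windows, each counted with the 50 bases after the start as well, TTCCCAC occurred in 6.38%, AACAAT in 10.72%, ACAAAG in 18.71%, CAGCTG in 16.3% and CAGATG in 17.15%. RefSeq windows were found for 8 of the 9 genes (9 windows, since *Dll1* has a pair). Of these 9, 1 held TTCCCAC, 2 held ACAAAG, 4 held CAGCTG (*Dll1*, *Dll3*, *Jag1* and *Lfng*), none held AACAAT or CAGATG, and 5 held no searched letters at all. *Mfng* has no window in the table used here. The matches are letter counts and not binding sites.

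All 9 genes passed the filter on low values. On a per-length scale, normalized counts per kb of the longest protein-coding transcript, the order of the mean levels over the 24 libraries was *Notch2* (971), *Mfng* (763), *Dll1* (698), *Notch1* (625), *Notch3* (526), *Lfng* (507), *Jag1* (143), *Dll3* (102) and *Jag2* (72.7). The 3 ligands *Jag1*, *Dll3* and *Jag2* thus lay well below the receptors and the Fringe genes. The top place of *Notch2* held in 23 of 24 libraries, and *Lfng* exceeded *Jag1* in 24 of 24. The middle of the order was less firm: *Mfng* exceeded *Dll1* in 18 libraries, *Dll1* exceeded *Notch1* in 17, *Notch1* exceeded *Notch3* in 18 and *Notch3* exceeded *Lfng* in 14. Of the low genes, *Jag1* exceeded *Dll3* in 22 libraries and *Dll3* exceeded *Jag2* in 20.

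The first comparison asked which of the genes differed in ARK that had lost *Sox9* from the neural plate onward, at E13.5. *Notch1* (ENSMUSG00000026923, chr2:26457903-26516663, minus strand, GRCm38), the main receptor of radial glia, was downregulated. Its normalized counts were 4625, 4013, 4115 and 4689.8 in the 4 mutants (A1 to A4) and 6428, 9012, 7304 and 8267 in the 4 controls (A5 to A8). Every mutant lay below every control. The means were 4361 ± 346 and 7753 ± 1126, and *Notch1* stood at 0.566 of the control level (log2 fold change -0.82, SE 0.104, 95% interval -1.04 to -0.61, adjusted p = 0.0002). Without A1 the log2 fold change was -0.85 (adjusted p = 0.000463), and among *Xist*-low libraries alone, which left the mutants A1 and A4 against 4 controls, it was -0.72 (adjusted p = 0.00393).

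The other 8 genes did not follow *Notch1* past the threshold. Of the 16454 genes tested, 152 (0.924%) had an adjusted p under 0.05, of which 92 were lower (0.559%), and 5.06% had mutant and control ranges that did not overlap. None of the 8 other genes was called by limma, by edgeR (0.887% of genes) or by DESeq2 (2.18%), none had ranges that did not overlap, and 2 had an unadjusted p under 0.05 against 11.7% of all genes. Their log2 fold changes lay between -0.39 and 0.10, 7 of 8 were below 0 against 51.4% of all genes, and their median was -0.17 against -0.00456 for all genes. Without A1, 6 of 8 were below 0 with a median of -0.14, and among *Xist*-low libraries alone, where A1 is 1 of 2 mutants, all 8 were, with a median of -0.14.

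Among the receptors, *Notch2* (ENSMUSG00000027878, chr3:98013527-98150361), a second receptor of radial glia, ranged from 7270.4 to 10229.9 normalized counts in the mutants and from 9708 to 11322 in the controls, and the log2 fold change was -0.23 (95% interval -0.41 to -0.05, unadjusted p = 0.0143, adjusted p = 0.268). The lowest value was that of A1, and without it the log2 fold change was -0.13 (adjusted p = 0.346). Among *Xist*-low libraries, A1 included, it was -0.36 (unadjusted p = 0.00114, adjusted p = 0.0953). *Notch3* (ENSMUSG00000038146, chr17:32120820-32166852), which is prominent in the mural cells of vessels and also present in progenitors, ranged from 3118 to 3509 and from 3258 to 4599 (log2 fold change -0.15, 95% interval -0.38 to 0.09), and without A5, the highest control, the log2 fold change was -0.0483. The drop of *Notch1* relative to *Notch2* could be read within each library, where the scaling of the library plays no part. The ratio of *Notch1* to *Notch2* reads, with no correction for gene length, was 0.497 ± 0.106 in mutants (0.392 to 0.636) and 0.744 ± 0.114 in controls (0.645 to 0.889), with no overlap. Without A1 the mutant ratios ran from 0.392 to 0.515, a mean of 0.450 ± 0.0614 (n = 3).

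**Figure D1:**
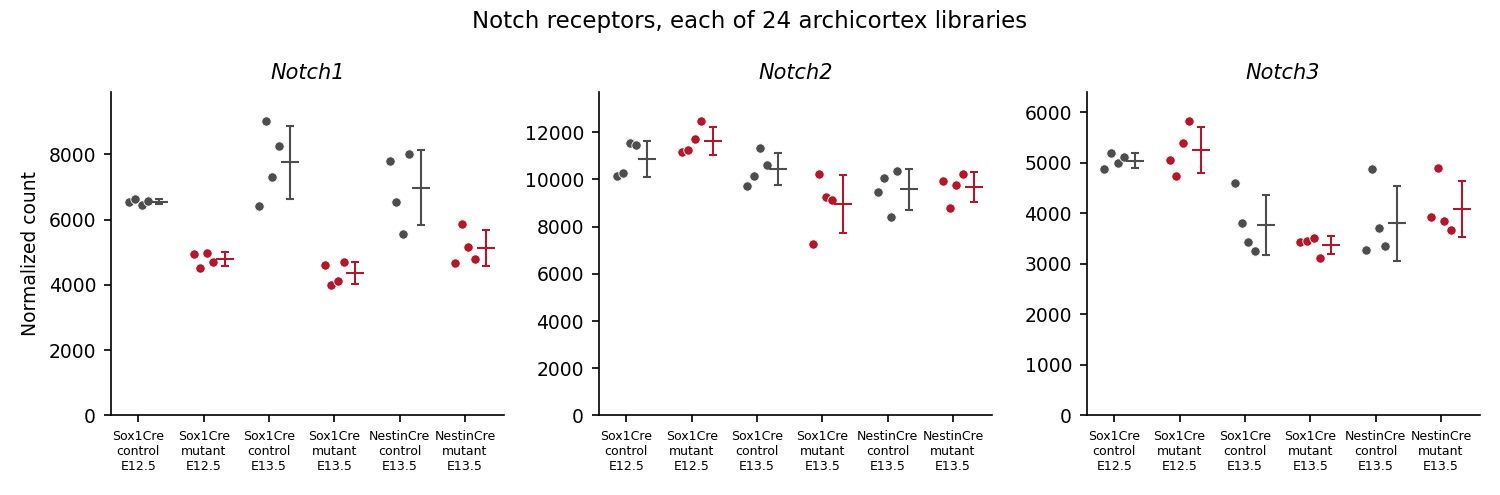
Normalized counts of *Notch1*, *Notch2* and *Notch3* (vertical axes) in each of the 24 ARK libraries by group (horizontal axes), with bars at the mean ± SD of 4 libraries. The E13.5 Sox1Cre mutants sit between 4013 and 4689.8 for *Notch1*, all below their controls, while mutants and controls of the same age and Cre overlap for *Notch2* and *Notch3*.

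Among the ligands, *Dll3* (ENSMUSG00000003436, chr7:28293553-28302238), a divergent Delta protein found in differentiating neural cells, had the largest change after *Notch1*. Its normalized counts were 296, 191, 236 and 289 in mutants and 333, 385, 325 and 277 in controls. 2 of the 4 mutants lay within the control range. The log2 fold change was -0.39 (SE 0.149, 95% interval -0.70 to -0.08, unadjusted p = 0.015, adjusted p = 0.275), and it passed the threshold only when libraries were weighted by their quality (-0.48, adjusted p = 0.0446, in a fit that called 5.85% of genes). Without A1 it was -0.48 (adjusted p = 0.0941), and among *Xist*-low libraries -0.16 (adjusted p = 0.719). *Dll1* (ENSMUSG00000014773, chr17:15367354-15376872), the main Delta ligand of newborn neurons, *Jag1* (ENSMUSG00000027276, chr2:137081456-137116644), a Jagged ligand of progenitors and of several other tissues, and *Jag2* (ENSMUSG00000002799, chr12:112907819-112929776), a second Jagged ligand, had log2 fold changes of -0.08, -0.14 and 0.10, with intervals that each held 0. The interval was narrow for *Dll1* (-0.25 to 0.10) and wider for *Jag1* (-0.47 to 0.19) and *Jag2* (-0.25 to 0.45). A1 was the lowest mutant for both Jagged genes, and without it *Dll1* stood at -0.0303, *Jag1* at 0.04 (adjusted p = 0.898) and *Jag2* at 0.30 (adjusted p = 0.246). Among *Xist*-low libraries, A1 included, *Jag1* stood at -0.46 (unadjusted p = 0.0107, adjusted p = 0.208) and *Jag2* at -0.0936. The Fringe genes *Lfng* (ENSMUSG00000029570, chr5:140607320-140615545) and *Mfng* (ENSMUSG00000018169, chr15:78755882-78773475) had log2 fold changes of -0.21 (-0.44 to 0.02) and -0.20 (-0.42 to 0.02). Exons of *Notch1*, *Notch3* and *Dll1* overlap antisense genes, which cannot be separated since the strand setting of the counting is not given, but the most abundant of these, *A930024N18Rik* at *Dll1*, averaged 28.9 normalized counts against 2498 for *Dll1*.

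**Figure D2:**
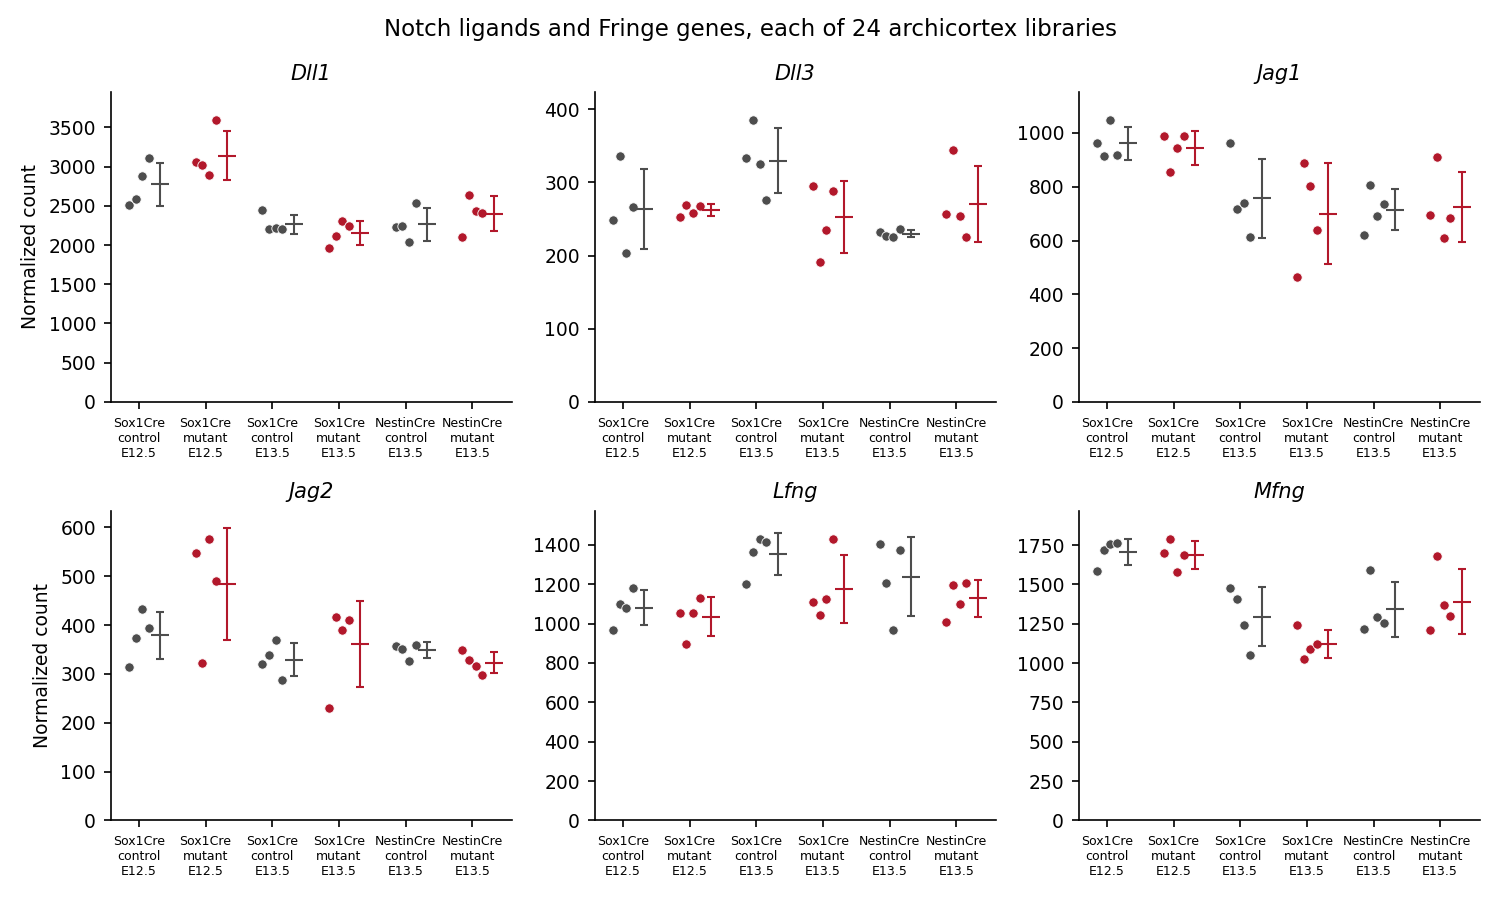
Normalized counts of the 4 ligands and the 2 Fringe genes (vertical axes) in each of the 24 libraries by group (horizontal axes), with bars at the mean ± SD of 4 libraries. Mutant and control ranges overlap in all 3 mutant comparisons for these 6 genes, and E13.5 values of *Dll1* and *Mfng* lie below the E12.5 values in both Sox1Cre genotypes.

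Few cell type markers passed the threshold in this comparison. The radial glia list (7 genes, most abundant *Vim*) summed to 60533 ± 3537 normalized counts in mutants and 64851 ± 3011 in controls, with *Vim* lower (log2 fold change -0.26, adjusted p = 0.0289) and the other 6 not called. The list of intermediate progenitors and neurons (7 genes, most abundant *Map2*) summed to 42775 ± 10159 and 42402 ± 8257, and none was called. All 9 endothelial markers were below 0 (median -0.30, summed 9397 ± 3206 against 10800.1 ± 498, most abundant *Kdr*, none called). Without A1 the endothelial sum in mutants was 10847 ± 1674 (n = 3), 5 of the 9 were below 0 and the median was -0.05. The 6 choroid plexus markers (most abundant *Ttr*) summed to 57306 ± 34720.3 in mutants and 44191 ± 18289 in controls, and without A1 all 6 were above 0 (median 0.81, summed 73992 ± 11735, none called). *Ebf3*, 1 of 6 Cajal-Retzius markers, was lower (log2 fold change -0.32, adjusted p = 0.0352). No marker was at 0 in every library. The part of these differences in the *Notch1* result was not tested, and in whole tissue fewer cells of a type and less RNA per cell cannot be told apart.

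At E12.5, *Notch1* was again the gene of the group that was lower in Sox1Cre mutants. The *Notch1* counts were 4955, 4531, 4979 and 4693 in mutants (A9 to A12) and 6543, 6638, 6439 and 6584 in controls (A13 to A16). Again every mutant lay below every control. The log2 fold change was -0.45 (SE 0.104, 95% interval -0.67 to -0.24, adjusted p = 0.0417), and an exact permutation test over the 8 libraries gave p = 0.0286, the smallest it can give. In all, 119 genes (0.723%) were called here, 89 lower (0.541%), and 10.3% had ranges that did not overlap. The *Notch1* call was near the threshold: leaving out any 1 of the 8 libraries gave an adjusted p of 0.0579 to 0.114, and the comparison within 1 *Xist* class gave -0.46 (adjusted p = 0.124).

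None of the other 8 genes was called at E12.5 by limma, by edgeR (0.644% of genes) or by DESeq2 (1.79%), and 1, *Dll1*, had an unadjusted p under 0.05, as had 2217 of the 16454 genes. The Delta ligand *Dll1* measured 3137 ± 311 in mutants and 2773 ± 277 in controls (log2 fold change 0.18, unadjusted p = 0.0449, adjusted p = 0.356). Without A12, the highest mutant, *Dll1* stood at 0.11 (adjusted p = 0.687). *Jag2* had the largest value of the 8, 0.33 (95% interval -0.03 to 0.68, adjusted p = 0.41). It was lowest among the mutants in A10, where endothelial markers summed to 5935 against 11216 to 12310.2 in the other 3 and pericyte and mural cell markers to 2218 against 3345 to 4480.0, and without A10 *Jag2* stood at 0.51 (adjusted p = 0.159). *Dll3* and *Jag1* stood at 0.01 and -0.03, and no ligand passed as lower at this age. *Notch2* (0.10) and *Notch3* (0.05) were close to 0, as were *Lfng* (-0.06) and *Mfng* (-0.02). In all, 3 of the 8 were below 0 (49.6% of all genes) with a median of 0.03, against 0.00198 for all genes. The ratio of *Notch1* to *Notch2* reads was 0.412 ± 0.0292 in mutants and 0.606 ± 0.0471 in controls, again with no overlap. None of the cell type markers was called at this age. All 7 cortical hem markers were above 0 (median 0.15, summed 20233 ± 2803 in mutants and 17846 ± 3686 in controls, most abundant *Rspo1*), and 6 of 7 archicortex and cortical identity markers were below 0 (median -0.21, most abundant *Lhx2*). The choroid plexus list summed to 30407 ± 9808 in mutants and 20806 ± 5286 in controls. The part of these lists in the *Notch1* value was not tested.

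The NestinCre comparison asked what a later loss that mostly spared the cortical hem did. *Notch1* counts were 4683, 5879, 5163 and 4783 in mutants (A17 to A20) and 7803, 6532, 5570.1 and 8009 in controls (A21 to A24). Of the 4 mutants, 3 lay below every control, while A18 (5879) lay above control A23 (5570.1). The log2 fold change was -0.44 (SE 0.104, 95% interval -0.65 to -0.22), with an unadjusted p of 0.000412, an adjusted p of 0.252 and an exact permutation p of 0.0571. Only 11 genes were called in this comparison (0.0669%). *Notch1* was called by DESeq2 (adjusted p = 0.0271, with 0.225% of genes called) and by limma without A23 (adjusted p = 0.0493), and not by edgeR (0.0304% of genes).

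For the other 8 genes the NestinCre comparison gave log2 fold changes from -0.12 (*Lfng*) to 0.21 (*Dll3*), with 2 of 8 below 0 (50.7% of all genes), a median of 0.03 against -0.00213 for all genes, and no adjusted p under 0.946. None of the 8 had an unadjusted p under 0.05 (6.47% of all genes did) or was called by edgeR or DESeq2. Within 1 *Xist* class 6 of 8 were below 0 with a median of -0.05, *Lfng* standing at -0.33 (unadjusted p = 0.00826, adjusted p = 1), and without A18 4 of 8 were below 0 with a median of -0.01 and *Dll3* at 0.0894. *Lfng* ran from -0.24 to -0.0580 with 1 library left out (without A23 and without A21). *Notch2* stood at 0.02 (95% interval -0.16 to 0.19), an interval that does not reach the value of *Notch1*. The ratio of *Notch1* to *Notch2* reads was 0.535 ± 0.0946 in mutants (0.467 to 0.670) and 0.727 ± 0.0861 in controls (0.648 to 0.825), and the ranges overlapped. Without A18, the library with ventral markers, the log2 fold change of *Notch1* was -0.50 (adjusted p = 0.139). No cell type marker was called, and all 9 endothelial and all 8 erythroid markers were below 0 (medians -0.14 and -0.10, most abundant *Kdr* and *Hbb-y*), whose part was not tested. The endothelial markers summed to 7031 in mutant A19 and, without it, to 10729 ± 704 in the other 3 mutants against 10683 ± 617 in controls.

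**Figure D3:**
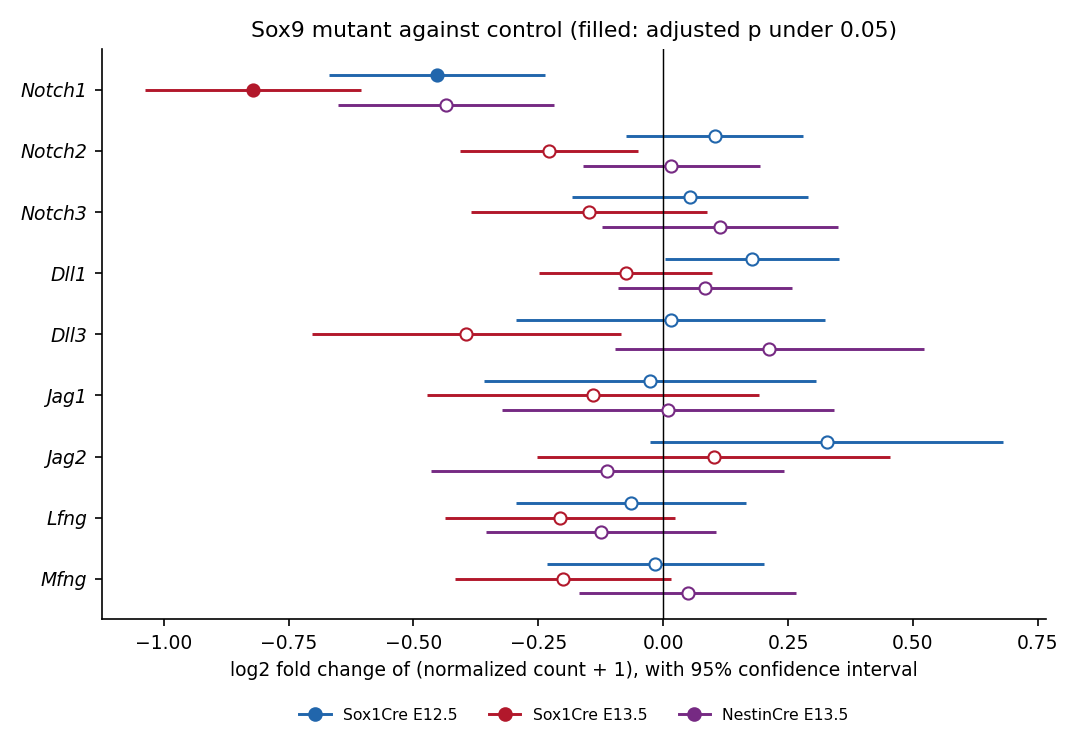
Log2 fold change of mutant against control (horizontal axis) for the 9 genes (vertical axis) in the E12.5 Sox1Cre, E13.5 Sox1Cre and E13.5 NestinCre comparisons, with 95% confidence intervals from limma. *Notch1* lies below 0 in all 3 (-0.45, -0.82 and -0.44) and is the only gene with filled points, which mark an adjusted p under 0.05.

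Whether the changes differed between comparisons was tested directly. Between the Cre lines at E13.5, the mutant change of *Notch1* differed by -0.39 on the log2 scale (Sox1Cre minus NestinCre, unadjusted p = 0.0157, adjusted p = 0.4), that of *Dll3* by -0.61 (unadjusted p = 0.00891, adjusted p = 0.347) and that of *Notch2* by -0.24 (adjusted p = 0.624). None of the 9 passed in limma, edgeR or DESeq2, 1 of the 8 other than *Notch1* (*Dll3*) had an unadjusted p under 0.05 against 8.27% of all genes, and 7 genes passed in all (0.0425%). Between the ages in the Sox1Cre line, *Notch1* differed by -0.37 (E13.5 minus E12.5, unadjusted p = 0.0203, adjusted p = 0.61) and *Notch2* by -0.33 (unadjusted p = 0.0123, adjusted p = 0.606). All 8 values other than that of *Notch1* were below 0 (50.8% of all genes), but no gene of the 16454 (0.0%) passed in limma or edgeR, while 2 of the 8 (*Notch2* and *Dll1*) and 7.4% of all genes had an unadjusted p under 0.05. DESeq2 called 20 genes (0.122%), with none of the 9 among them. Without A1, *Notch1* differed by -0.42 between lines (adjusted p = 0.206) and by -0.40 between ages (adjusted p = 0.513), and *Dll3* by -0.69 between lines (adjusted p = 0.123). *Notch2* then differed by -0.15 between lines (adjusted p = 0.531) and by -0.23 between ages (adjusted p = 0.585). Of the 8 others 7 were then below 0 between ages, *Jag1* standing at 0.0700 and *Jag2* at -0.0227 in place of -0.23. Within 1 *Xist* class, the difference between lines was -0.13 for *Notch1* (adjusted p = 0.979) and -0.30 for *Dll3* (adjusted p = 0.975). Without A18, *Dll3* differed by -0.48 between lines (adjusted p = 0.552). A stronger fall of *Notch1* at E13.5 than at E12.5, or in Sox1Cre than in NestinCre mutants, was therefore not shown.

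The remaining pathway genes were described from lists by role, 42 genes of which 41 were tested. They covered other receptors, ligands and Fringe (*Rfng*, *Dner*, *Notch4*, *Dlk1*), maturation and glycosylation (*Pofut1*, *Poglut1*, *Furin*, *Eogt*), cleavage (*Adam10*, *Aph1a*, *Ncstn*), endocytosis and ubiquitin ligases (*Mib1*, *Dtx4*, *Itch*, *Dtx3*) and the nuclear complex (*Rbpj*, *Ep300*, *Spen*). None of the 41 was called in any of the 3 mutant comparisons, and their medians were -0.00673 at E13.5 and -0.00409 at E12.5 in Sox1Cre mutants and -0.0155 in NestinCre mutants, against -0.00456, 0.00198 and -0.00213 for all genes. Without A1, 4 of the 41 were higher at E13.5 in Sox1Cre mutants (*Ncstn*, *Furin*, *Spen* and *Maml3*) and none was lower, in a fit that called 1.33% of all genes as higher. *Rbpj*, the DNA-binding partner of every Notch receptor, had log2 fold changes of -0.10, -0.11 and -0.18. *Dlk1*, a Delta-like membrane protein, came closest with 1.46 in Sox1Cre mutants at E12.5 (adjusted p = 0.0693).

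Of 6 target genes, none passed in the 3 mutant comparisons, and *Hes1* and *Hes5*, the repressors that hold back neuronal differentiation, had log2 fold changes of 0.11 and 0.13 in Sox1Cre mutants at E13.5. *Nrarp*, a feedback inhibitor that binds the Notch intracellular part, had values of -0.27, -0.30 and -0.24 in the E13.5 Sox1Cre, E12.5 Sox1Cre and NestinCre comparisons (adjusted p = 0.0994, 0.0725 and 0.45). Of 6 proneural genes, which Hes factors repress, *Neurod4* was upregulated in Sox1Cre mutants at E12.5 (1.71, adjusted p = 0.0417, 145 ± 48.3 against 46.5 ± 23.5 normalized counts) and stood at 1.44 at E13.5 (adjusted p = 0.0887). The other 5 were not called. Without A1, *Neurod4* stood at 1.29 at E13.5 (adjusted p = 0.0928) and *Nrarp* at -0.29 (adjusted p = 0.0553), and no target or proneural gene was called.

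**Figure D4:**
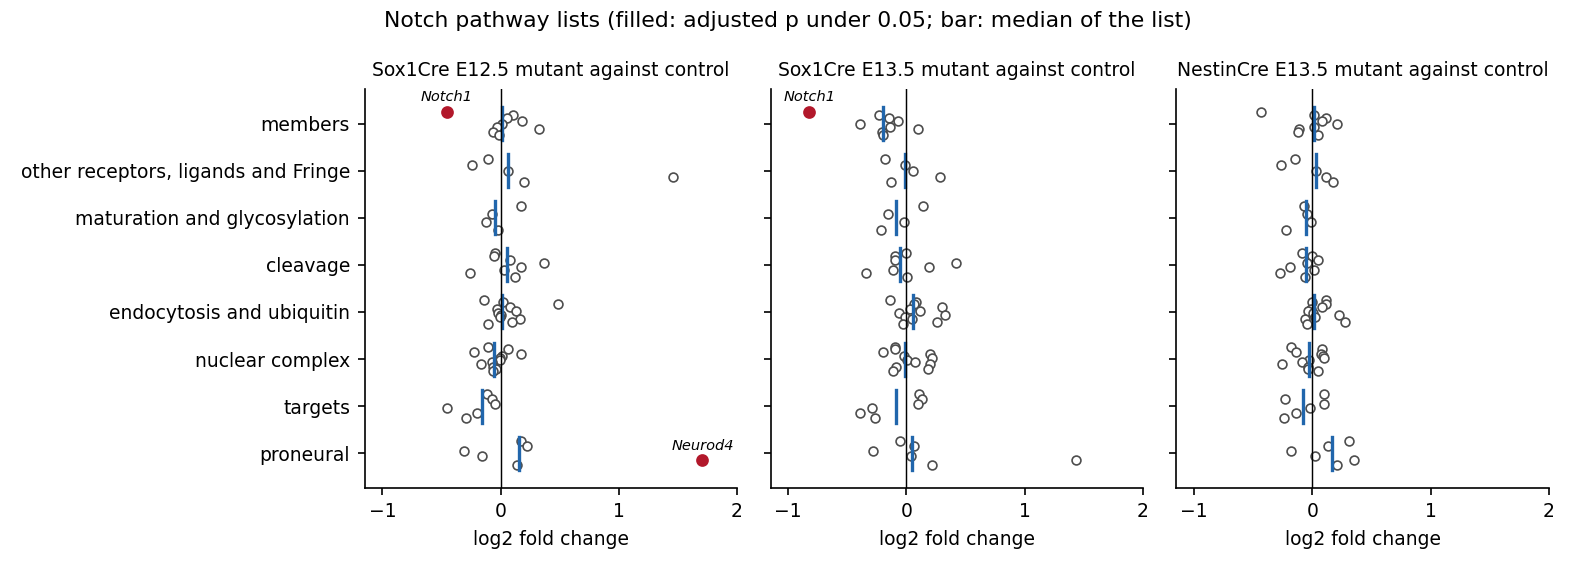
Log2 fold change of mutant against control (horizontal axes) for each tested gene of the 9 and of 7 Notch pathway lists (vertical axis), in 3 panels for the comparisons, with a bar at the median of each list. *Notch1* and, at E12.5, *Neurod4* are the only filled points (adjusted p under 0.05), and the medians of the 7 lists lie between -0.16 and 0.17. The median of the 9 genes at E13.5 in Sox1Cre, -0.20, includes *Notch1*, whose level led to their choice. The text gives the median without *Notch1*.

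Across the 24 libraries, the 5 genes whose log2 level was most like that of *Notch1*, among genes with a mean of at least 100, were *Pgpep1* (Pearson r = 0.900), *Nrarp* (0.882), *Plce1* (0.880), *Slc27a1* (0.879) and *Aif1l* (0.874). Without A6 and A8, the libraries farthest from the median of *Notch1*, these were 0.869, 0.839, 0.834, 0.836 and 0.853. The 24 points share 6 genotype and age groups, and the r of *Sox9* with *Notch1* was 0.814. After the group means were taken out, the r of *Nrarp* was 0.830, that of *Plce1* 0.655, that of *Pgpep1* 0.576, that of *Slc27a1* 0.493 and that of *Aif1l* 0.269. Of the 8 other Notch genes, *Lfng* was nearest to *Notch1* with r = 0.585 (Spearman's rho 0.499, and r = 0.692 after the group means were taken out), *Dll3* reached 0.355, *Notch2* 0.134 and *Mfng* 0.0976, and *Jag1*, *Notch3*, *Dll1* and *Jag2* lay between -0.0426 and -0.200. Without A6 and A8, r was 0.477 for *Lfng*, 0.267 for *Mfng*, 0.187 for *Dll3* and 0.123 for *Notch2*. *Jag1*, *Notch3* and *Dll1* then stood above 0 (0.105, 0.0691 and 0.0314) and *Jag2* at -0.103.

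More of the Notch genes passed the threshold between ages than between genotypes, against a background that was also higher. In Sox1Cre mutants, where each age held 2 libraries of each *Xist* class, 4 of the 8 other genes were lower at E13.5 than at E12.5 with ranges that did not overlap, and *Jag1* was also lower. Among all genes, 4263 genes were called (25.9%), 1992 of them lower (12.1%), and 10.8% of genes were lower with ranges that did not overlap. The 8 genes had a median log2 fold change of -0.45 against -0.00794 for all genes, and 7 of 8 were below 0 (51.2% of all genes). Without A1 the median was -0.29, with 7 of 8 below 0 and 4 called as lower. That fit called 23.6% of all genes, and 10.6% of all genes were called as lower.

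*Notch3* was at 5052, 4739.8, 5386 and 5815 at E12.5 and 3433, 3458, 3509 and 3118 at E13.5, a log2 fold change of -0.63 (95% interval -0.87 to -0.40, adjusted p = 0.00068). *Mfng*, the Fringe enzyme with the highest level per kb, went from 1702, 1791, 1576 and 1686 to 1240.3, 1027, 1092 and 1121 (-0.59, -0.81 to -0.38, adjusted p = 0.000576). *Dll1* went from 3054, 3016, 2886 and 3591 to 1958, 2115, 2304 and 2237 (-0.54, -0.71 to -0.37, adjusted p = 0.000258). For each of these 3, every E13.5 library lay below every E12.5 library. *Notch2* went from 11150.4, 11244, 11699 and 12455 to 7270.4, 10229.9, 9266 and 9112 (-0.39, -0.56 to -0.21, adjusted p = 0.0028), without overlap but with A1 well below the rest, and without A1 it was -0.29 (adjusted p = 0.00935). All 4 of these calls held without A1. That of *Jag1* (-0.47, adjusted p = 0.0333) did not (-0.29, adjusted p = 0.136). *Jag2* (-0.42, adjusted p = 0.0698), *Notch1* (-0.14, adjusted p = 0.354), *Dll3* (-0.07) and *Lfng* (0.18, adjusted p = 0.245) did not pass. Without A1, *Jag2* stood at -0.22 (adjusted p = 0.281) and *Dll3* at -0.16 (adjusted p = 0.506). *Jag2* passed without A10 (-0.61, adjusted p = 0.00895) and without A2 (-0.51, adjusted p = 0.0425), and the call of *Jag1* was also lost without A4, A9, A11 or A12 (adjusted p = 0.0568 to 0.0822).

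In Sox1Cre controls the same 3 genes, *Notch3*, *Mfng* and *Dll1*, were lower at E13.5, with ranges that did not overlap. The log2 fold changes were -0.43 (adjusted p = 0.0189), -0.41 (adjusted p = 0.0157) and -0.29 (adjusted p = 0.0305), and 1892 genes were called (11.5%), 851 lower (5.17%), while 8.74% of genes were lower without overlap. With the log2 *Xist* level as a covariate no gene was called, and the 3 values were -0.40, -0.40 and -0.29 (adjusted p = 0.207, 0.18 and 0.21). Leaving out 1 control library at a time moved the number of the 9 genes called from 0 (without A8) to 6 (without A5). Over the same fits the number of all genes called ran from 794 to 2629 of 16454. The call of *Dll1* was lost without any 1 of A6, A7, A8, A15 or A16 (adjusted p = 0.0676 to 0.111). *Lfng* went the other way from *Notch3*, *Mfng* and *Dll1* (0.32, adjusted p = 0.0627). Its counts were 966, 1100.0, 1079 and 1179.9 at E12.5 and 1199, 1365, 1431 and 1414 at E13.5. All E13.5 controls were thus higher, as for 9.23% of all genes. *Notch1* stood at 0.23 (adjusted p = 0.156), *Notch2* at -0.05 and *Jag1*, *Dll3* and *Jag2* at -0.36, 0.34 and -0.20, none of them called. With the *Xist* covariate, *Lfng*, *Notch1* and *Jag1* stood at 0.18, 0.12 and -0.16, and *Notch2*, *Dll3* and *Jag2* at -0.06, 0.24 and -0.22.

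**Figure D5:**
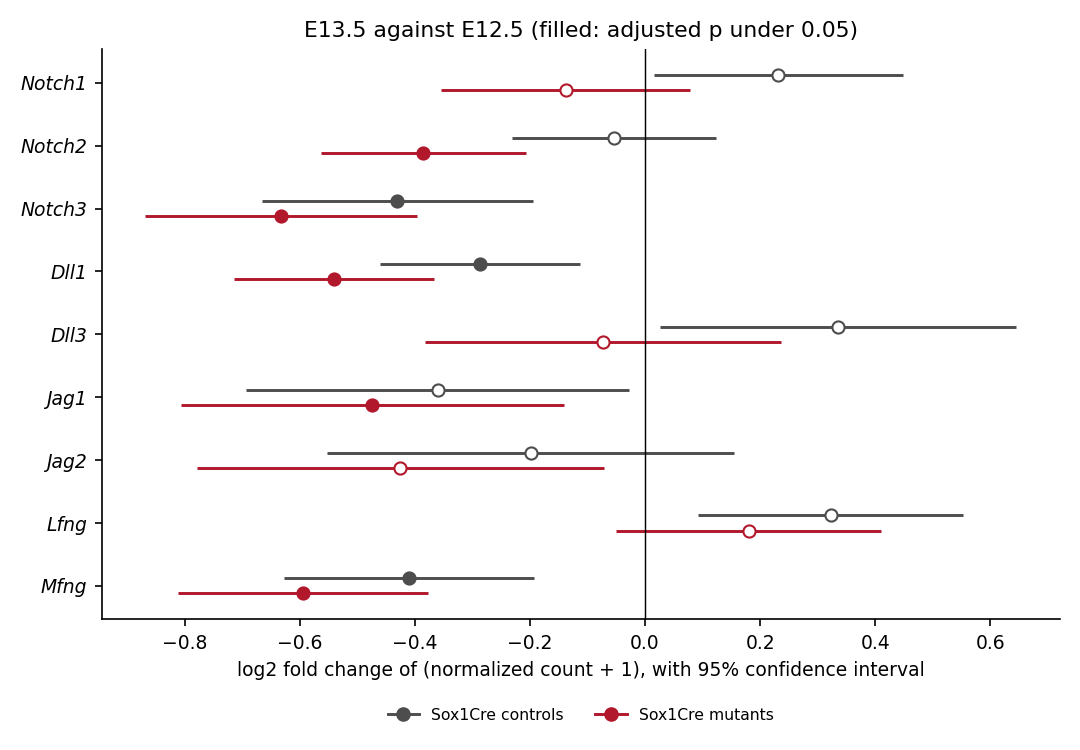
Log2 fold change of E13.5 against E12.5 (horizontal axis) for the 9 genes (vertical axis) in Sox1Cre controls and Sox1Cre mutants, with 95% confidence intervals from limma and filled points for an adjusted p under 0.05. *Notch3*, *Dll1* and *Mfng* are filled and below 0 in both genotypes, and *Lfng* lies above 0 in both.

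Other pathway genes moved with age in both directions. In mutants 7 of 41 rose and 10 fell, where 13.8% of all genes rose and 12.1% fell, and in controls 4 rose and 6 fell, where 6.33% of all genes rose and 5.17% fell. Without A1, 8 rose and 10 fell in mutants. *Dtx1* and *Neurl1b*, a regulator of Notch and a ubiquitin ligase for Notch ligands, rose by 1.42 and 1.06 in mutants, and both also rose in controls, *Neurl1b* by 0.84. *Kat2b*, an acetyltransferase, rose by 0.56 and 0.56, and *Dner*, a neuronal Notch ligand, rose in controls (0.52). Of the coactivators, *Maml3* had log2 fold changes of -0.40 in mutants and -0.43 in controls, *Maml1* -0.35 and -0.19, and *Ep300* -0.19 and -0.16, all called. *Dtx2* and *Kdm5a* also fell in both genotypes and *Dtx4* in controls. In mutants, *Dlk1* (-1.54), *Neurl1a* (-0.84), *Pofut1* and *Aph1a* were among the genes that fell, and *Spen*, *Fbxw7* and *Crebbp* among those that rose. Of the targets, *Hey1* fell in both (-0.36 in mutants and -0.51 in controls), and *Hes1* and *Hey2* rose in mutants (0.33 and 0.43), *Hey2* not without A1 (0.39, adjusted p = 0.0524). Of the proneural genes, *Neurod1* rose in both (1.30 and 1.11) and *Neurod4* in controls (1.31).

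Tissue composition markers moved with age too. Of 7 markers of intermediate progenitors (*Eomes*) and neurons, 6 rose in each genotype, against the 13.8% and 6.33% of all genes given above, *Neurod6* by 3.62 in mutants and 2.97 in controls, and the list summed to 28249 ± 1401 at E12.5 and 42775 ± 10159 at E13.5 in mutants (39879 ± 10222 without A1, n = 3, with 5 of 7 rising). Cortical hem markers fell, 5 of 7 in mutants and 2 of 7 in controls, from a sum of 20233 ± 2803 to 12206 ± 3669.6 in mutants and from 17846 ± 3686 to 12445 ± 2189 in controls, led by *Rspo1* and *Wnt3a*. Of all genes 12.1% and 5.17% fell. Without A1 the hem sum at E13.5 in mutants was 13804 ± 2207 (n = 3), and 3 of 7 fell, against 10.6% of all genes. Pericyte and mural cell markers, which bear on *Notch3*, summed to 3428 ± 937 and 3600.4 ± 1199 in mutants (3832 ± 585 at E12.5 without A10 and 4161 ± 523 at E13.5 without A1, n = 3 each) and 2959 ± 271 and 3974 ± 206 in controls, and *Rgs5* rose in both genotypes. Endothelial markers were not called in either. The erythroid list (8 genes, most abundant *Hbb-y*) summed to 213656 ± 15734 at E12.5 and 105078 ± 31845 at E13.5 in mutants and to 208219.6 ± 19441 and 117062 ± 39264 in controls, with no overlap between ages in either genotype. The choroid plexus list summed to 30407 ± 9808 and 57306 ± 34720.3 in mutants (73992 ± 11735 at E13.5 without A1, n = 3) and to 20806 ± 5286 and 44191 ± 18289 in controls, where the ages did not overlap. Of 7 radial glia markers, 3 rose in mutants (*Pax6*, *Slc1a3* and *Nes*) and *Vim* fell (-0.37), *Sox2* being called as well without A1 (-0.22), while none was called in controls. The radial glia sum went from 63883 ± 5942 to 60533 ± 3537 in mutants and from 65669.6 ± 2267 to 64851 ± 3011 in controls. All 7 archicortex and cortical identity markers were called in mutants, 5 higher and 2 lower (*Emx2* and *Wnt8b*), with or without A1, and 1 higher and 2 lower in controls. Of 6 Cajal-Retzius markers, 2 were higher and 3 lower in mutants, with or without A1, and 2 were higher in controls. Of 7 meningeal markers, 1 was higher (*Dcn*) and 3 lower in mutants, the 3 not without A1, and 1 was higher in controls. The part of these shifts in the age differences of the Notch genes was not tested.

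Between the 2 sets of E13.5 controls, which differ in their Cre, none of the 9 genes was called (40 genes, 0.243%, were). *Dll3* differed most, with 233, 226, 225 and 237 in NestinCre and 333, 385, 325 and 277 in Sox1Cre controls. The groups did not overlap, as for 3.36% of all genes in the direction of lower NestinCre values, and the log2 fold change was -0.51 (unadjusted p = 0.00262, adjusted p = 0.19, and 0.0484 in DESeq2, which called 1.21% of genes). The Sox1Cre control level thus lay above that of every other group mean for this gene, mutants included. In the E13.5 mutant comparisons of *Dll3*, Sox1Cre mutants were set against the Sox1Cre controls and NestinCre mutants against the NestinCre controls.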

How the data were processed

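The authors trimmed reads with Trimmomatic 0.36, aligned them to GRCm38 with STAR 2.5.2a, estimated gene counts with RSEM 1.2.31 and divided them by DESeq2 size factors. The deposited signal per gene and library is this normalized count, on a linear scale, with no pooling of replicates. All values (100% in each library, tolerance 0.01 reads) were whole multiples of that library's step, and the whole reads so recovered gave the depths and the input of edgeR and DESeq2. The step of A3 is near 1, so the check is weak for it. The strand setting of the counting is not given in the sources used here.

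The main test was limma 3.58.1 (R 4.3.3) on log2(value + 1) for 16454 genes that reached 10 in 4 or more libraries of 24, with 6 group means (18 residual degrees of freedom), a trended prior, no covariates, two-sided tests and Benjamini-Hochberg adjustment over all genes tested at 0.05. The 9 Notch genes and all lists were chosen with earlier results of these data known. Named are the 9 genes, *Sox9*, *Xist*, list genes past the threshold, up to 4 others per list with the highest mean, and the 5 genes most like *Notch1*. The results of some list genes are not reported here. The age comparison in mutants was added after seeing the data. Alternatives were 2 other pseudocounts, 2 other filters, quantile normalization, array weights, a fit on the compared libraries, an *Xist* covariate, 1 *Xist* class (added after seeing the data), edgeR 4.0.16, DESeq2 1.42.0 and leaving out each library. On simulated data for the Sox1Cre E13.5 comparison (16259 genes), limma recovered 90% of genes changed by 0.5 or 2 and 67% of those changed by 0.75 or 1.5, with 7.1% false calls (7.6% in edgeR and 15.1% in DESeq2, which alone made a call, 1, in an unchanged comparison). The changed genes all had a mean of at least 100. Counts were drawn independently for each gene, so no simulated library stood apart as A1 did. Recovery for lower genes, or with such a library, was not measured. GENCODE M21 named 51719 of 51912 genes. Summaries and plots used matplotlib 3.10.9, scipy 1.17.1, pandas 2.3.3 and numpy 2.4.6 under Python 3.11.15. RNA was prepared with the RNeasy Plus Micro and KAPA mRNA HyperPrep kits. The 36 pairs of libraries of the same group differed by more than counting error (chi-square per degree of freedom 8.24 to 78.0), so none was the same library deposited again. Libraries made from 1 embryo or RNA sample would not be detected by this.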

Additional observations from a re-analysis of the deposited data

Results flagged for a closer look

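In 54 groups of 4 libraries (9 genes in 6 groups), 2 held a library far from the other 3 by Dixon's ratio at its 95% level, and chance gives about 1 in 20. *Dll1* measured 2447 normalized counts in A5, a Sox1Cre control at E13.5, against 2200 to 2218 in the other 3 (ratio 0.927). *Jag2* measured 230.0 in A1, the Sox1Cre mutant at E13.5 with low vessel, choroid plexus and hem markers, against 389.7 to 416 in the other 3 (ratio 0.858), and without A1 the log2 fold change of *Jag2* in that comparison was 0.30 (adjusted p = 0.246) in place of 0.10. The cause of either was not tested.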

How the results depend on the processing

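No paired analysis was possible because the libraries are numbered 1 to 24 and no groups share a number. Over 1485 repeated fits of the 9 genes in 8 comparisons, 1387 kept their direction and their side of the threshold, 30 lost and 16 gained a call, and 52 changed sign. None that changed sign had an adjusted p under 0.637. The causes were not tested. Of the 64 values of the other 8 genes, 45 moved by over 1.5 times and 7 changed their call with at least 1 library left out. *Notch1* in E13.5 Sox1Cre mutants stayed below 0 and called in all 11 alternatives (-0.91 to -0.72) and all 8 leave-outs (-0.91 to -0.75). These fits reuse the libraries whose *Notch1* level led to the choice of the genes, so they are a description only. At E12.5 *Notch1* was called in 8 of 11 alternatives (-0.51 to -0.41) and in no leave-out. In NestinCre mutants it was called in 1 of 11 alternatives (DESeq2) and 1 of 8 leave-outs (without A23). On simulated data for the E13.5 Sox1Cre comparison, genes changed by 0.75 or 1.5 were recovered less often than those changed by 0.5 or 2. Smaller changes, and a library set apart like A1, were not simulated.

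The number of genes called also changed. At E13.5 in Sox1Cre it was 44 on the compared libraries only, 962 with array weights (2 of the 9 genes), 358 in DESeq2, 100 within 1 *Xist* class, and 90 to 510 with 1 library left out (510 without A1, 90 without A3). In NestinCre it was 5 with genes above 0 in any library, 5 with a mean of at least 100, 17 with array weights, 2 with the *Xist* covariate, 5 in edgeR, 37 in DESeq2 (1 of the 9 genes), 3 within 1 *Xist* class, and 2 to 7 with 1 library left out (0 to 1 of the 9). At E12.5 it was 76 on the compared libraries only, 577 with array weights, 294 in DESeq2, 44 within 1 *Xist* class, and 50 to 139 with 1 library left out. *Notch1* was lost there with genes above 0 in any library, with quantile normalization and within 1 *Xist* class, so that 0 of the 9 were called in each, as in each leave-out (0 to 0). For the difference between lines it was 13 on the compared libraries only, 369 with array weights, 95 in DESeq2 and 5 to 144 with 1 library left out (144 without A1). For the difference between ages it was 20 in DESeq2 and 0 to 1 with 1 library left out. For age in controls it was 3244 with array weights (5 of the 9 genes), 0 with the *Xist* covariate (0 of the 9), and 794 to 2629 with 1 library left out (0 to 6 of the 9). For age in mutants it was 2133 on the compared libraries only and 2948 to 4725 with 1 library left out (4 to 6 of the 9). For the 2 sets of controls it was 22 with a mean of at least 100, 108 with array weights, 157 in DESeq2 (1 of the 9 genes) and 11 to 31 with 1 library left out.

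The log2 values that changed sign were small. At E13.5 in Sox1Cre they were 0.00800 for *Dll1* and 0.11 for *Jag1* with array weights and -0.0936 for *Jag2* within 1 *Xist* class. In NestinCre they were -0.0173 for *Notch2*, -0.0425 for *Dll1*, -0.14 for *Jag1* and -0.0651 for *Mfng* within 1 *Xist* class, and for *Jag1* -0.0141 with array weights and -0.0469 with the *Xist* covariate. At E12.5 *Dll3* stood at -0.0149 with quantile normalization, -0.0290 with the *Xist* covariate and -0.00707 and -0.00696 in edgeR and DESeq2, *Jag1* at 0.0691 with the covariate and *Mfng* at 0.0131 with quantile normalization. In the difference between lines they were 0.12 for *Jag1* with array weights and 0.23 for *Lfng* within 1 *Xist* class. In the difference between ages they were 0.12 for *Jag1* with array weights and 0.00205 for *Lfng* with the covariate. Between control sets they were -0.00388 for *Notch3* with the covariate, and for *Dll1* 0.00368 with quantile normalization, 0.00566 with array weights, 0.00559 in edgeR and 0.0424 within 1 *Xist* class. With 1 library left out, *Jag1* ran from -0.27 to 0.0431 at E13.5 in Sox1Cre. In NestinCre, *Notch2* ran from -0.0439 to 0.0626, *Jag1* from -0.10 to 0.0869 and *Mfng* from -0.0462 to 0.14. At E12.5, *Dll3* ran from -0.0997 to 0.14, *Jag1* from -0.0505 to 0.0196, *Lfng* from -0.12 to 0.00281 and *Mfng* from -0.0505 to 0.0166. Between lines, *Jag1* ran from -0.28 to 0.0327 and *Lfng* from -0.18 to 0.0299. Between ages, *Jag1* ran from -0.24 to 0.0700. Between control sets, *Notch3* ran from -0.12 to 0.10, *Dll1* from -0.0622 to 0.0424, *Jag1* from -0.17 to 0.0486 and *Mfng* from -0.0415 to 0.12. For age in mutants, *Dll3* ran from -0.16 to 0.0529, and the calls of *Notch2*, *Notch3*, *Dll1* and *Mfng* held in every alternative and every leave-out.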
